A study of Homo sapiens with 10 samples.

Results

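The TFAP2 transcription factors TFAP2A, TFAP2B and TFAP2C and the amnion or trophoblast genes VTCN1, PGF and CGA are described here across 5 groups of human cells. These 6 genes, of 27492 in the deposited tables, were matched by gene symbol, and they were chosen from their measured values in these same columns, so their levels and changes are a description. The cells were all from H9, an established human embryonic stem cell (hESC) line, carrying a GFP reporter under the LTR7 element of an endogenous retrovirus. The groups were hEPS cells given 10 mM crotonate for 12 days (hEPS + Cr), untreated hEPS cells, primed hESCs given 10 mM crotonate for 12 days (primed hESC + Cr), endodermal cells, and untreated primed hESCs. Crotonate is a short-chain fatty acid salt from which cells make crotonyl-CoA, the donor for lysine crotonylation. hEPS cells are extended pluripotent stem cells, converted here from the primed reporter hESCs in LCDM medium on inactivated mouse feeder cells, whereas primed hESCs were kept in mTeSR on Matrigel. Endodermal cells came from the same hESCs through BMP4 and Activin A in E8 medium, with the GSK3 inhibitor CHIR99021 at the start. Cell state, medium and feeders cannot be told apart between hEPS and primed cells, and all groups come from 1 line.

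The labels list 2 samples per group, and the tables hold 1 column per group, in FPKM (fragments counted relative to transcript length and sequencing depth, so a level per length). No spread between samples could be computed, so no test was made and the order of levels across groups carries no error. In bulk RNA, fewer cells of a type and less RNA per cell cannot be told apart. A change is the difference of log2(FPKM + 1), crotonate minus untreated, and a call of higher or lower needed a 2-fold difference on that scale. Genes below 1 FPKM in both columns of a comparison were not considered. A gene below 1 FPKM in 1 column was thus considered only through the other, and could be called in 1 direction only. The difference of log2(FPKM + 1) understates the change of a gene at low FPKM. Changes were computed within a table only, so hEPS and endodermal cells are set beside primed hESCs by level, with no fold. The hEPS columns summed to 596397 FPKM with crotonate and 610417 FPKM untreated, and each other column to between 369750 and 373248 FPKM. The endoderm markers bore out the endodermal label only in part. In endodermal cells 3 of 8 reached 1 FPKM, namely GATA4 at 99.9 FPKM, CXCR4 at 34.7 FPKM and GATA6 at 3.40 FPKM, while FOXA2 was listed at 0 and SOX17 was at 0.0721 FPKM. The 8 endoderm markers summed to 139 FPKM in endodermal cells and 4.05 FPKM in untreated primed hESCs, and the 8 mesoderm and mesenchyme markers to 4095 FPKM in endodermal cells and 89.0 FPKM in untreated primed hESCs.

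AP-2 proteins, the products of the TFAP2 genes, bind as dimers to GC-rich palindromes and act in surface ectoderm, neural crest, extraembryonic tissues and germ cells. TFAP2A is known from surface ectoderm, neural crest and amnion, TFAP2B from neural crest and kidney, and TFAP2C from trophoblast, primordial germ cells and naive pluripotent cells. VTCN1 encodes the B7 family immune inhibitory ligand B7-H4, PGF the placental growth factor that binds FLT1, and CGA the alpha subunit shared by chorionic gonadotropin and the pituitary glycoprotein hormones. The amnion is the membrane that encloses the embryo, and the trophoblast forms the outer layers of the placenta, including the hormone-secreting syncytiotrophoblast.

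In GENCODE 44 on hg38, TFAP2A lies at chr6:10393186-10419659 on the minus strand and overlaps the antisense RNA genes TFAP2A-AS1 and TFAP2A-AS2. No source used here says whether counting used strand, so reads of TFAP2A and of these antisense genes cannot be told apart. TFAP2B lies at chr6:50818723-50847619 on the plus strand, TFAP2C at chr20:56629306-56639283 on the plus strand, VTCN1 at chr1:117143587-117210960 on the minus strand, PGF at chr14:74941834-74955626 on the minus strand, and CGA at chr6:87085498-87095106 on the minus strand. The AP-2 palindrome GCCNNNGGC, which reads the same on both strands, was searched in the 250 bases before each gene start in RefSeq on GRCh38.p14, where 5 of the 6 genes have 7 entries. It was found in 1 of these, that of VTCN1 (chr1:117210928-117211177), against 6948 of 35116 promoters in RefSeq (19.8%). The match starts 152 bases before the RefSeq start. That start lies inside the GENCODE gene given above, so the sequence shown for VTCN1 ends before it. A match is a description of letters, not of binding. The promoters of the TFAP2 genes with an entry, of VTCN1 and of PGF, whose values the results turn on, follow 5′ to 3′ on the strand of the gene. They are shown without bases that lie in an annotated exon, and capitals mark the match to the AP-2 palindrome. TFAP2A and PGF have 2 entries each, of which 1 is shown. The other of PGF, chr14:74955598-74955847, overlaps the one shown, and the other of TFAP2A begins inside an annotated exon. Neither holds a match.

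TFAP2A, chr6:10419660-10419909, minus strand: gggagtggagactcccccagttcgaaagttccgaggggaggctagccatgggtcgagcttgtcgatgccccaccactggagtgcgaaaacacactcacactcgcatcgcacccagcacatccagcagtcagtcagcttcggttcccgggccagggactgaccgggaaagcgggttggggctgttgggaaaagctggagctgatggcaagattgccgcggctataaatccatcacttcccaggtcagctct

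TFAP2B, chr6:50818621-50818722, plus strand: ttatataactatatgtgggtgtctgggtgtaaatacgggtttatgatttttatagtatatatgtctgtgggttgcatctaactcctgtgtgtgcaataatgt

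VTCN1, chr1:117210961-117211177, minus strand: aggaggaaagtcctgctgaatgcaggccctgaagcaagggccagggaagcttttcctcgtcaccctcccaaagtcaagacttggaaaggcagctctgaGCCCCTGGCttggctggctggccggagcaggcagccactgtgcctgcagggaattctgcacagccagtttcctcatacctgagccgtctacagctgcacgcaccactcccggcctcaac

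PGF, chr14:74955765-74956014, minus strand: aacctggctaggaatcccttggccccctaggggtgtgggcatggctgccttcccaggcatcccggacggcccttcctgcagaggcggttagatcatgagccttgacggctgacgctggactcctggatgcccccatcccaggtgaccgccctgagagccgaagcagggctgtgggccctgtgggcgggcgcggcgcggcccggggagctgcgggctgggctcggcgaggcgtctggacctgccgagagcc

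TFAP2A was at its highest in endodermal cells and fell in hEPS cells with crotonate. It measured 0.341 FPKM in hEPS + Cr, 2.67 FPKM in untreated hEPS cells, 0.171 FPKM in primed hESC + Cr, 40.2 FPKM in endodermal cells and 0 in untreated primed hESCs. In endodermal cells only 1806 genes were at a higher FPKM and 90.6% of genes were below it. The change in hEPS cells was -1.45 on the log2 scale, an FPKM ratio of 0.128, and 119 of 14161 genes considered had a larger fall. Because low FPKM values of 1 gene in 2 columns stand in ratios of small whole numbers once scaled by a common factor, the fewest reads that could give the TFAP2A values were 3 in hEPS + Cr and 31 in untreated hEPS cells, with a 95% counting interval of the ratio from 0.0250 to 0.409. True read numbers may be a multiple of these, which would narrow the interval, and such intervals cover counting error only. At 3 reads, 1 read would be worth 0.114 FPKM of TFAP2A in hEPS + Cr, against 0.0101 FPKM in primed hESC + Cr, so the interval in hEPS cells is likely too wide. In primed hESCs the fewest reads were 17 with crotonate and 0 without. Set against a chosen floor of 3 reads, TFAP2A was 6.42-fold higher in primed hESC + Cr. The lower 95% counting limit of the ratio was 4.68. Both columns stayed below 1 FPKM, so the gene was not considered for a call.

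TFAP2B was the least abundant of the 3 factors in every group except untreated primed hESCs, where TFAP2A was also listed at 0. It measured 0.192 FPKM in hEPS + Cr, 1.39 FPKM in untreated hEPS cells, 0 in primed hESC + Cr, 0.0489 FPKM in endodermal cells and 0 in untreated primed hESCs. Untreated hEPS cells were thus the only group with at least 1 FPKM of TFAP2B. It was called lower in hEPS + Cr at a log2 change of -1.0, just past the threshold, with a ratio of 0.139 and a counting interval from 0.0839 to 0.218 over at least 21 and 200 reads. Of all genes considered, 5.16% lay within 0.1 of the threshold in the hEPS comparison and 7.49% in the primed comparison.

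TFAP2C was the main TFAP2 factor of hEPS cells and was not called in either comparison. It measured 22.3 FPKM in hEPS + Cr, 16.2 FPKM in untreated hEPS cells, 0.708 FPKM in primed hESC + Cr, 3.13 FPKM in endodermal cells and 2.29 FPKM in untreated primed hESCs. The log2 change was 0.44 in hEPS cells, at an FPKM ratio of 1.37 with a counting interval from 1.26 to 1.5. In primed hESCs the log2 change was -0.94, just short of the threshold, at a ratio of 0.310 with a counting interval from 0.228 to 0.415. TFAP2C was called lower in primed hESCs with a pseudocount of 0.1, with quantile normalization, and by a ratio of FPKM over 1.5. The log2 changes of TFAP2C thus had opposite signs in the 2 cell states, and their difference was not tested.

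The TFAP2 family had a different leading gene in hEPS cells, in endodermal cells and in primed hESC + Cr. The 5 family genes, TFAP2A to TFAP2E, summed to 23.3 FPKM in hEPS + Cr, 20.9 FPKM in untreated hEPS cells, 1.84 FPKM in primed hESC + Cr, 45.9 FPKM in endodermal cells and 3.42 FPKM in untreated primed hESCs. TFAP2C made up 95.9% of that sum in hEPS + Cr and 77.5% in untreated hEPS cells, against 6.83% in endodermal cells. TFAP2A made up 87.6% of it in endodermal cells. The largest share in primed hESC + Cr was that of TFAP2E, a member less studied than the others, at 52.2%, against 33.2% in untreated primed hESCs, where TFAP2C held 66.8%. TFAP2E itself measured 0.958 FPKM in primed hESC + Cr and 1.14 FPKM in untreated primed hESCs and was not called, so its larger share goes with the lower level of TFAP2C. Of 9 listed cofactors and inhibitors of AP-2 proteins, CITED4, a transcriptional coactivator, was the only one called. It was lower in primed hESC + Cr at 1.01 FPKM, against 6.09 FPKM in untreated primed hESCs. Over all genes considered, 13.9% were called higher and 12.7% lower in primed hESCs, and 8.42% higher and 3.02% lower in hEPS cells. KCTD1 and KCTD15, known inhibitors of AP-2 activity, were not called in either comparison.

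**Figure D1:**
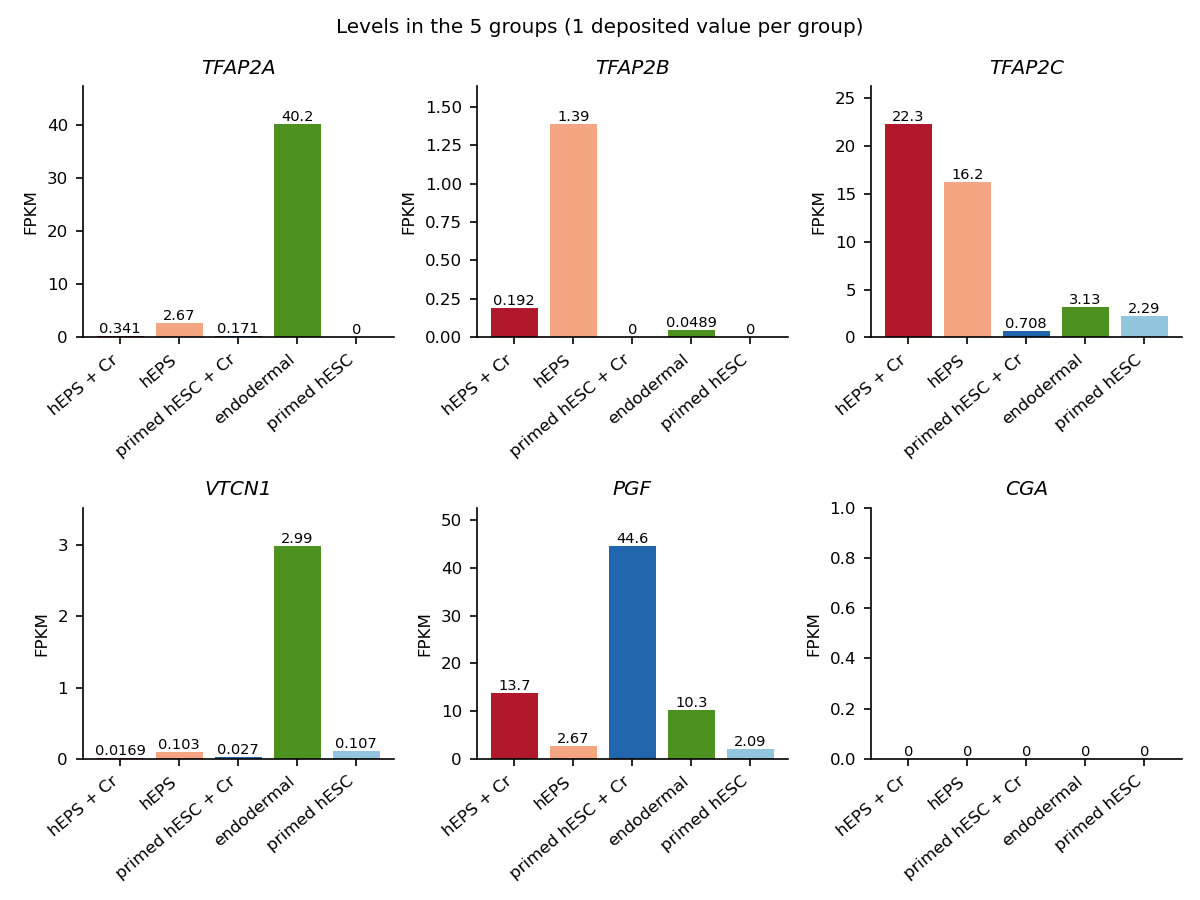
FPKM (vertical axes, each with its own range) of the 6 genes in hEPS + Cr, untreated hEPS, primed hESC + Cr, endodermal cells and untreated primed hESCs, 1 deposited value per bar with no error. TFAP2A and VTCN1 are highest in endodermal cells at 40.2 and 2.99 FPKM, TFAP2C is highest in hEPS + Cr at 22.3 FPKM, PGF is highest in primed hESC + Cr at 44.6 FPKM, and CGA is listed at 0 in all 5.

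VTCN1 was below 0.2 FPKM in every group other than endodermal cells. It measured 0.0169 FPKM in hEPS + Cr, 0.103 FPKM in untreated hEPS cells, 0.0270 FPKM in primed hESC + Cr, 2.99 FPKM in endodermal cells and 0.107 FPKM in untreated primed hESCs. The fewest reads behind these values were 1 in hEPS + Cr and 8 in untreated hEPS cells, 2 in primed hESC + Cr and 9 in untreated primed hESCs, and 270 in endodermal cells. The counting intervals of the crotonate ratios, from 0.00372 to 1.23 in hEPS cells and from 0.0265 to 1.22 in primed hESCs, both included 1, so at these read numbers no difference was detectable. Among the other B7 family ligands, ICOSLG, the ligand of the T cell costimulator ICOS, rose in hEPS + Cr to 4.36 FPKM, against 1.24 FPKM in untreated hEPS cells, and fell in primed hESC + Cr to 0.416 FPKM, against 5.76 FPKM in untreated primed hESCs. CD276, another B7 family ligand, was at 77.1 FPKM or more in all 5 groups and was not called.

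PGF rose with crotonate in both cell states. It measured 13.7 FPKM in hEPS + Cr, 2.67 FPKM in untreated hEPS cells, 44.6 FPKM in primed hESC + Cr, 10.3 FPKM in endodermal cells and 2.09 FPKM in untreated primed hESCs. Both crotonate columns were above both untreated columns and, in FPKM, above the endodermal column. The hEPS + Cr column summed to 596397 FPKM and the endodermal column to 373034 FPKM. More genes were above PGF in hEPS + Cr (6709) than in endodermal cells (6328), so the order of these 2 is uncertain. In primed hESCs the log2 change was 3.88, an FPKM ratio of 21.4 with a counting interval from 17.9 to 25.7 over at least 2451 and 130 reads, and 164 of 13210 genes considered had a larger rise. In hEPS cells the log2 change was 2.0, an FPKM ratio of 5.14 with a counting interval from 3.37 to 8.08 over at least 109 and 28 reads, and 210 genes had a larger rise. At 109 reads, 1 read would be worth 0.126 FPKM of PGF in hEPS + Cr, against 0.0182 FPKM in primed hESC + Cr, so that interval too is likely too wide. The difference between the 2 cell states was not tested.

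PGF belongs to the VEGF family, whose ligands act on FLT1, KDR and FLT4 with the co-receptors NRP1 and NRP2. In primed hESCs 6 of the 8 other family genes considered were called higher and 1 lower with crotonate, with a median log2 change of 2.10 against -0.08 over all genes. Over all genes considered, 13.9% were called higher and 12.7% lower. NRP1 and VEGFC were below 1 FPKM in untreated primed hESCs and were considered only through their crotonate level. FLT1, the receptor of PGF, was at 321 FPKM in primed hESC + Cr, against 66.1 FPKM in untreated primed hESCs, and at 201 FPKM in endodermal cells. NRP1 was at 157 FPKM in primed hESC + Cr, against 0.399 FPKM in untreated primed hESCs. VEGFC, a lymphatic growth factor, was at 23.7 FPKM in primed hESC + Cr, against 0.537 FPKM in untreated primed hESCs, while FLT4, the receptor of VEGFC, fell to 1.43 FPKM, against 5.87 FPKM in untreated primed hESCs. In hEPS cells 1 of 7 was called, against 8.42% of all genes called higher and 3.02% lower. It was NRP2, which rose to 64.9 FPKM, against 23.7 FPKM in untreated hEPS cells. FLT1 was at 7.31 FPKM in hEPS + Cr and 7.33 FPKM in untreated hEPS cells.

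CGA was listed at 0 in all 5 columns, and no fold was computed. The other glycoprotein hormone genes were low as well. Of 14 listed subunits and receptors, none reached 1 FPKM in untreated primed hESCs. The 2 considered there passed only through their crotonate level, so nothing is read from both being called higher, against 13.9% of all genes. They were CGB7, a chorionic gonadotropin beta subunit gene, at 2.42 FPKM in primed hESC + Cr and 0.448 FPKM in untreated primed hESCs, and FSHR, the receptor of follicle-stimulating hormone, at 2.74 FPKM in primed hESC + Cr and 0 in untreated primed hESCs. CGB7 was at 2.50 FPKM in endodermal cells. The CGB genes are near-identical copies, so the split of reads between them is uncertain. None of the 12 genes found in the hEPS table reached 1 FPKM.

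Of the 6 genes, 2 were considered in primed hESCs, with 1 called higher (PGF), against 13.9% of 13210 genes called higher, and 0 called lower, against 12.7%. In hEPS cells 4 were considered, with 1 called higher (PGF), against 8.42% of 14161 genes, and 2 called lower (TFAP2A and TFAP2B), against 3.02%. The members were chosen on these contrasts, so nothing is read from these shares. The others were below 1 FPKM in both columns of the comparison, namely TFAP2A, TFAP2B, VTCN1 and CGA in primed hESCs and VTCN1 and CGA in hEPS cells.

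**Figure D2:**
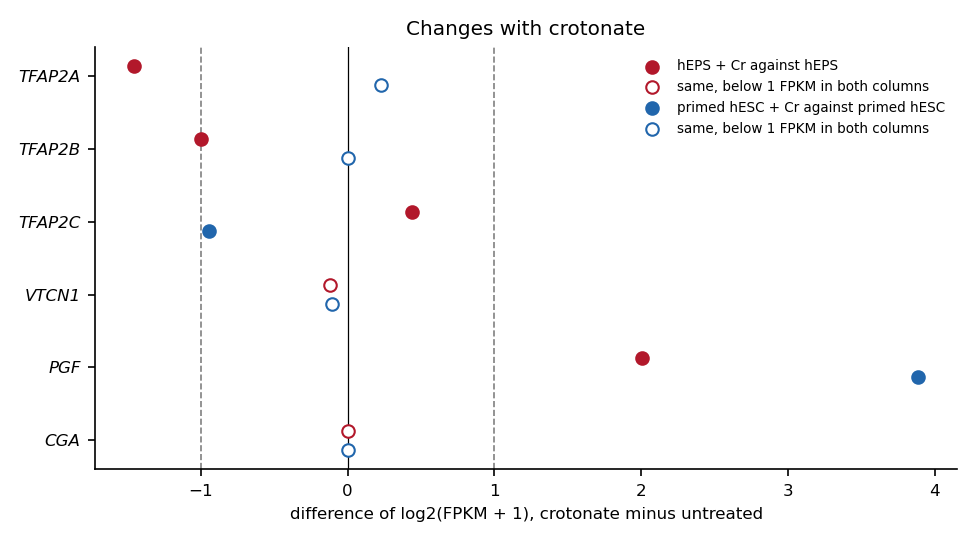
Difference of log2(FPKM + 1), crotonate minus untreated (horizontal axis), for each of the 6 genes in hEPS cells (red) and primed hESCs (blue), where open points are below 1 FPKM in both columns and dashed lines mark a fold of 2. PGF lies past the threshold to the right in both, at 2.0 and 3.88, and TFAP2A at -1.45 and TFAP2B at -1.0 lie past it to the left in hEPS cells only.

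**Figure D3:**
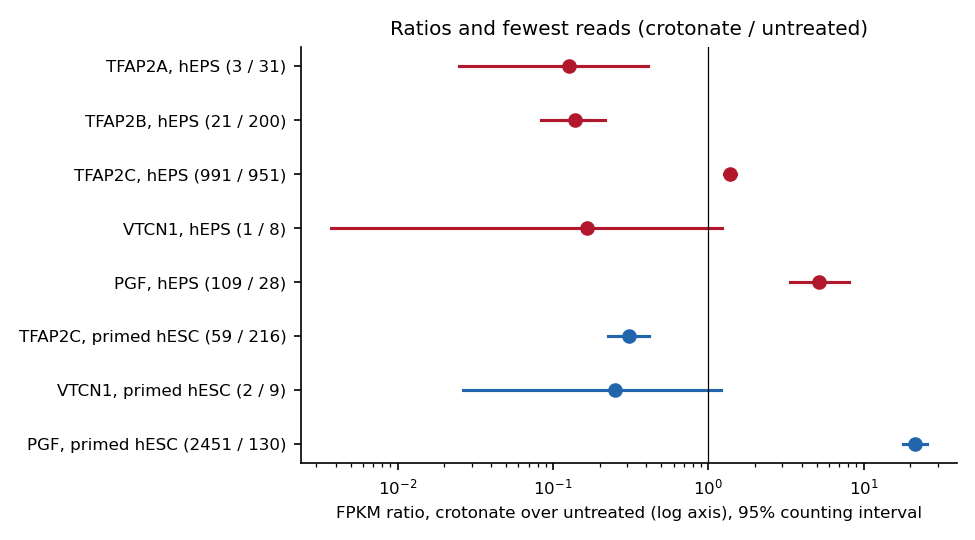
FPKM ratio of crotonate over untreated (log axis) with its 95% counting interval, in hEPS cells (red) and primed hESCs (blue), with the fewest reads in the crotonate and untreated columns in parentheses. The intervals cover counting error only and would be narrower at a multiple of these reads, which is likely for TFAP2A and PGF in hEPS cells, and those of VTCN1 include 1.

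Other genes of the trophoblast and amnion were read from lists chosen with earlier results of these data known, and they carry no test. Of 13 trophoblast transcription factors considered in primed hESCs, 7 were called higher and 4 lower with crotonate. Over all genes considered, 13.9% were called higher and 12.7% lower. All 7 called higher were below 1 FPKM in untreated primed hESCs, so they were considered only through their crotonate level. The 4 called lower were at 1 FPKM or more there. The median log2 change, 1.23 against -0.08 over all genes, depends on that filter, and nothing is read from it. HAND1, which also marks mesoderm, was at 374 FPKM in primed hESC + Cr, against 0.0698 FPKM in untreated primed hESCs, and GATA3 was at 12.7 FPKM, against 0.0297 FPKM in untreated primed hESCs. GRHL2, an epithelial transcription factor, fell to 0.118 FPKM in primed hESC + Cr, against 8.04 FPKM in untreated primed hESCs. In hEPS cells 3 of 9 were called, all higher, against 8.42% of all genes called higher and 3.02% lower. GATA3 was at 8.55 FPKM in hEPS + Cr, against 2.08 FPKM in untreated hEPS cells.

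The defining trophoblast markers were mostly near 0. The 11 markers summed to 11.3 FPKM in hEPS + Cr, 4.83 FPKM in untreated hEPS cells, 14.1 FPKM in primed hESC + Cr, 27.2 FPKM in endodermal cells and 6.79 FPKM in untreated primed hESCs. GATA3 alone gave 8.55 FPKM of the sum in hEPS + Cr, 12.7 FPKM of it in primed hESC + Cr and 20.1 FPKM of it in endodermal cells. ELF5 and GCM1, trophoblast stem cell and syncytiotrophoblast regulators, were at most 0.137 FPKM in every group. VGLL1 and TP63, markers of trophoblast progenitors, were at 1.3 and 1.32 FPKM in endodermal cells and below 0.2 FPKM elsewhere. The pregnancy-specific glycoprotein genes on the list, PSG1, PSG3, PSG4, PSG5 and PSG9, were listed at 0 in all 5 columns. Of 29 listed syncytiotrophoblast genes, 5 reached 1 FPKM in untreated primed hESCs and 8 in primed hESC + Cr. Of 9 considered, 4 were called higher, only through their crotonate level, and 1 lower. In hEPS cells 1 of 5 was called higher. Of 9 extravillous trophoblast genes considered, 5 were called higher and 2 lower in primed hESCs, and 5 higher in hEPS cells. Over all genes, 13.9% were higher and 12.7% lower in primed hESCs, and 8.42% and 3.02% in hEPS cells.

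Genes of the amnion list were called in both cell states, and the difference in number was not tested. Over all genes, calls were also more frequent in primed hESCs (13.9% higher and 12.7% lower) than in hEPS cells (8.42% higher and 3.02% lower). Of 23 considered, 16 were called higher and 6 lower in primed hESCs with crotonate, with a median log2 change of 2.20. In hEPS cells 4 of 20 were called higher and 4 lower, with a median of 0.14 against -0.09 over all genes. Of the 25 listed, 15 reached 1 FPKM in untreated primed hESCs and 20 in primed hESC + Cr. Some were considered through 1 column only, such as ISL1 through crotonate and GABRP through untreated primed hESCs. Such genes could be called in 1 direction only. The primed count and median depend on that filter, and nothing is read from them. ISL1, a transcription factor of amnion and also of mesoderm, was at 19.4 FPKM in primed hESC + Cr, against 0.0670 FPKM in untreated primed hESCs, and at 46.9 FPKM in endodermal cells. The 6 defining amnion markers summed to 241 FPKM in endodermal cells, 63.0 FPKM in primed hESC + Cr and 4.05 FPKM in untreated primed hESCs. In hEPS + Cr and untreated hEPS cells they summed to 10.7 and 5.18 FPKM. Of these markers, ITGB6 was at 0.400 FPKM in endodermal cells. GABRP and WNT6, which like TFAP2A and VTCN1 are markers of amnion, were at 20.8 and 19.9 FPKM in endodermal cells. They were at 0 and 0.87 FPKM in primed hESC + Cr, against 2.78 and 0 FPKM in untreated primed hESCs. GABRP was called lower there. The list holds genes that mesenchyme also expresses, such as VIM and POSTN, and the 8 mesoderm and mesenchyme markers summed to 3551 FPKM in primed hESC + Cr, against 89.0 FPKM in untreated primed hESCs. Their part in these counts was not tested.

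**Figure D4:**
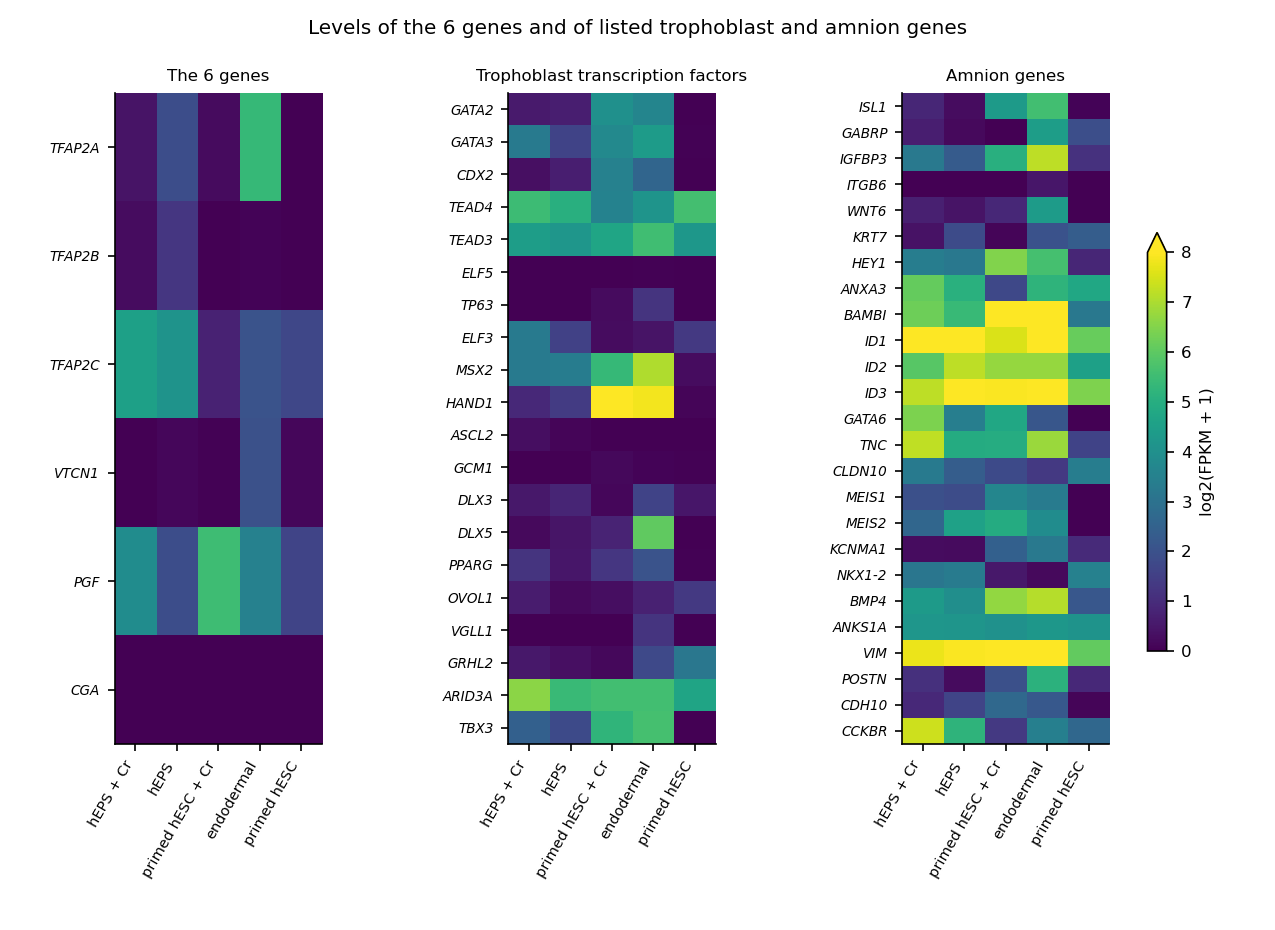
log2(FPKM + 1) (colour scale, ending at 8 with higher values in the same colour) of the 6 genes, 20 trophoblast transcription factors and 25 amnion genes (rows) in hEPS + Cr, untreated hEPS, primed hESC + Cr, endodermal cells and untreated primed hESCs (columns). DLX5 and WNT6 are bright in endodermal cells, at 65.4 and 19.9 FPKM, and below 1 FPKM in the other columns, while HAND1 is bright in primed hESC + Cr and endodermal cells, at 374 and 229 FPKM.

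The genes with a pattern most like each factor were found by the root mean square distance of centred log2(FPKM + 1) values over the 5 columns, among 13545 genes. Those nearest to TFAP2A were DLX2, DLX1 and DLX5, distal-less homeobox genes, at distances of 0.594, 0.733 and 0.750. DLX2 measured 32.0 FPKM in endodermal cells and at most 0.507 FPKM in the other groups. Those nearest to PGF were S100A4, ACVRL1 and TRPV2, of which ACVRL1, a receptor of the TGF-beta family, measured 12.2 FPKM in primed hESC + Cr and 0.268 FPKM in untreated primed hESCs. The nearest to TFAP2C were DMTN, CNDP2 and ZFP36, to TFAP2B PFKM, HEXDC and KPTN, and to VTCN1 BARX2, C1orf105 and EDNRA. For these 3 genes, 0 of the nearest stayed with a pseudocount of 0.1. Adding 1 to FPKM flattens low values: PFKM was at 33.4 FPKM or more in every column, and TFAP2B at most at 1.39 FPKM. The distance also sets columns of different tables side by side. Over 5 columns such likeness is a description of levels.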

How the data were processed

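Bulk polyadenylated RNA of 10 samples, 2 in each of 5 groups of H9 reporter cells, was sequenced. For extraction, RNeasy stands in the methods and TRIzol in the labels. The submitters' processing notes name hg38, TopHat 1.3.2, Cufflinks 1.1.0, HTSeq 0.6.0 and StringTie 1.3.0, and by the methods TMM normalization in edgeR preceded conversion by the authors to the FPKM values deposited in 3 tables, 1 column per group. No source used here states how 2 samples became 1 column, and read totals are unknown. Symbols turned into dates by a spreadsheet (28 in the hEPS table, 27 in each other table) were left out.

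Changes were computed with Python 3.11.15, numpy 2.4.6, pandas 2.3.3 and scipy 1.17.1 as differences of log2(FPKM + 1) within a table, considering genes with at least 1 FPKM in one column. No test was possible with 1 column per group. The step of 1 read was estimated from genes below 0.2 FPKM in both columns, of which 81.3% to 91.4% had ratios of whole numbers up to 12, within 0.001%, times a common factor. Counting intervals were exact (Clopper-Pearson). The calling step was checked on simulated tables with known fold changes. The 6 genes and 12 lists were chosen with earlier results of these data known. Named genes were the 6, up to 3 called genes per list and comparison with the largest change, the 3 nearest patterns per gene, and the cell type markers; other list genes were named after their values were seen, and a named gene is not reported here. The 4 alternatives were quantile normalization, an FPKM ratio over 1.5, a pseudocount of 0.1 and no low-value filter.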

Additional observations from a re-analysis of the deposited data

Results flagged for a closer look

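The 8 named genes of the lists given here were called in opposite directions with crotonate in hEPS cells and primed hESCs. TFAP2C is given beside them for the opposite signs of its log2 changes. Other named genes also had opposite signs without a call in both states. Among them were HAND1 (-0.47 in hEPS cells, 8.46 in primed hESCs) and MSX1 (-0.96 in hEPS cells, 6.59 in primed hESCs). Each difference is the log2 change in hEPS cells minus that in primed hESCs, and none was tested. TFAP2C differed by 1.38, with 0.44 in hEPS cells and -0.94 in primed hESCs, neither of them called. The epithelial genes CDH1, ESRP1 and CLDN4 differed by 6.23, 5.73 and 4.42, and ELF3, an epithelial transcription factor, by 2.81. TFPI2, a placental protease inhibitor, differed by 3.72, CCKBR by 3.55 and ICOSLG by 3.51. MEIS2, a homeobox gene, fell in hEPS cells and rose in primed hESCs, with a difference of -6.87, from -1.95 in hEPS cells and 4.92 in primed hESCs. Listed genes outside the naming rule also had calls of opposite sign, among them ID2 (-1.28 in hEPS cells, 2.20 in primed hESCs) and ID3 (-1.21 in hEPS cells, 1.49 in primed hESCs), chosen after their values were seen.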

How the results depend on the processing

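No paired analysis was possible because each group has 1 column, and leaving out a replicate was not run for the same reason. The number of the 6 genes called in primed hESCs was 1, and it was 2 with a pseudocount of 0.1, with quantile normalization and with a ratio over 1.5, where TFAP2C joined PGF (log2 change -1.56 and -1.02 under the first 2). In hEPS cells it was 3 under all 4 alternatives. With a pseudocount of 0.1, primed hESCs had 1 TFAP2 family gene called lower (0 before), 1 cofactor higher (0) and 2 lower (1), and 2 germ cell and naive pluripotency genes higher (1). In hEPS cells there were then 3 syncytiotrophoblast genes higher (1), 7 amnion genes higher (4) and 3 neural crest genes lower (1). Of 104 log2 changes of named genes, 98 kept their call with that pseudocount and 103 with quantile normalization, and none changed sign among called genes. Genes not considered count here as keeping their call. Some of them passed the threshold with that pseudocount, such as TFAP2A in primed hESCs, from 0.23 to 1.44. The nearest patterns kept 2 of 3 genes for TFAP2A, 1 for PGF and 0 for TFAP2B, TFAP2C and VTCN1. Depth limits VTCN1, whose crotonate columns may rest on as few as 1 read in hEPS cells and 2 in primed hESCs. With 1 column per group, no value has a spread between samples.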

Other observations

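Genes that act beside TFAP2C in germ cells and naive pluripotent cells were read as values. In hEPS cells 5 of 11 considered were called higher with crotonate and 1 lower, with a median log2 change of 0.93 against -0.09 over all genes. In primed hESCs 1 of 10 was called higher and 7 lower, with a median of -1.10 against -0.08. Of the 10, 8 reached 1 FPKM in untreated primed hESCs and 5 in primed hESC + Cr. Genes below it in 1 column, such as PRDM14 and SOX17 in primed hESCs, could be called in 1 direction only. The counts and medians depend on that filter, and nothing is read from them. Over all genes, 8.42% were called higher and 3.02% lower in hEPS cells, and 13.9% higher and 12.7% lower in primed hESCs. PRDM1, a germ cell specification factor, measured 52.3 FPKM in hEPS + Cr and 7.17 FPKM in untreated hEPS cells. Other genes of the list, NANOS3, DPPA3, DPPA5, KLF17 and ARGFX, were at most 0.420 FPKM in all 5 groups and were not considered. SOX17, a factor of both germ cells and endoderm, measured 191 FPKM in hEPS + Cr and 29.2 FPKM in untreated hEPS cells. The 8 definitive endoderm markers, which include SOX17, summed to 2569 FPKM in hEPS + Cr and 156 FPKM in untreated hEPS cells, of which CER1 alone gave 1963 FPKM in hEPS + Cr and 39.0 FPKM in untreated hEPS cells, and their part in this count was not tested. PRDM14, a pluripotency factor, was called lower in both states, at 11.3 FPKM in hEPS + Cr and 29.2 FPKM in untreated hEPS cells, and at 0.191 FPKM in primed hESC + Cr and 35.3 FPKM in untreated primed hESCs.

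Epithelial and surface ectoderm genes, among which TFAP2A is known to act, were called higher for 8 of 12 in hEPS cells with crotonate and lower for 0, with a median log2 change of 1.11. In primed hESCs 4 of 12 were called higher and 7 lower, with a median of -1.76. Of the 12, 11 reached 1 FPKM in untreated primed hESCs and 10 in primed hESC + Cr. Those below it in 1 column could be called in 1 direction only. The shares and medians over all genes are those given for the germ cell list. CDH1, the epithelial cadherin, measured 8.34 FPKM in hEPS + Cr and 2.98 FPKM in untreated hEPS cells, and 2.17 FPKM in primed hESC + Cr and 101 FPKM in untreated primed hESCs. It was at 33.8 FPKM in endodermal cells.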
